A study of Mus musculus with 31 samples.

Results

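The interleukin 12 (IL-12) family is a small group of cytokines that antigen-presenting cells use to steer T cells and natural killer cells, and 5 genes for its subunits were followed here: Il12a, Il12b, Il23a, Il27 and Ebi3. They were chosen by name, with earlier results of these data known. All 5 were found by Ensembl ID among the 29120 genes counted in the series. Each family member is a pair of chains. Il12b pairs with Il12a to make IL-12, which drives interferon gamma production, and with Il23a to make IL-23, which sustains cells that make interleukin 17. Ebi3 pairs with the product of Il27 to make IL-27, and with the Il12a chain to make IL-35, both better known for restraining T cell responses. In dendritic cells, bacterial products switch the genes on through Toll-like receptors, NF-kappaB and interferon regulatory factors.

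RNA was sequenced from cultured dendritic cells and whole spleens of C57BL/6 mice, either wildtype or Gpr34-/-, which lack a receptor for the lipid lysophosphatidylserine. The dendritic cells were grown for 10 days from the marrow of male mice of 8 to 16 weeks, in medium that carried GM-CSF from a secreting cell line, and were replated without serum. The 12 libraries of these cells comprised LPS-treated Gpr34-/- cells (replicates 2, 3 and 4), LPS-treated wildtype cells (replicates 1, 2 and 3), naive Gpr34-/- cells (replicates 2, 3 and 4) and naive wildtype cells (replicates 1, 2 and 4). LPS, a component of the bacterial cell wall, was added on day 11 for 8 h. The 19 spleen libraries came from 9 Gpr34-/- and 10 wildtype mice of 12 weeks that received no LPS according to their titles. Marrow grown in GM-CSF holds macrophage-like cells beside dendritic cells, and a whole spleen mixes many cell types, so that fewer cells of a type and less RNA per cell cannot be told apart.

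Total counts were 38998746 to 74164853 per library in dendritic cells and 56834377 to 133277070 in spleens. Summed markers of T, B, natural killer and erythroid cells lay between 0 and 7.60 CPM in the dendritic cell libraries. Those of dendritic cells lay between 9528 and 16920 CPM there, and those of macrophages between 762.5 and 2057 CPM. Plasma cell markers summed to 457.8 to 693.3 CPM. Of that list Mzb1 had 0 counts in all dendritic cell libraries labelled Gpr34-/-, so the sum alone does not show plasma cells. Neutrophil markers summed to 10.28 to 34.38 CPM. Mast cell and basophil markers summed to 19.65 to 30.34 CPM in LPS-treated and 24.05 to 57.45 CPM in naive libraries. Stromal and endothelial markers summed to 557.2 CPM in LPS replicate 2 labelled Gpr34-/- and to 35.27 to 91.82 CPM in the other libraries. In spleens dendritic cell markers summed to 9172 to 21040 CPM (Gpr34-/-) and 8786 to 13980 CPM (wildtype). That list thus does not set the cultures apart from whole spleens. Macrophage markers summed to 709.1 to 1270 CPM in Gpr34-/- and 740.6 to 933.8 CPM in wildtype spleens. Gpr34 itself did not follow the label in all cultures: it had 0, 120 and 4 counts in naive and 0, 117 and 104 counts in LPS-treated libraries labelled Gpr34-/-, against 199 to 324 counts in naive and 65 to 125 counts in LPS-treated wildtype libraries. The 3 libraries labelled Gpr34-/- with over 100 counts (naive replicate 3, LPS replicates 3 and 4) stay in the comparisons below. Each comparison of dendritic cells was also run without them. That run leaves LPS replicate 2 as the only LPS-treated library labelled Gpr34-/-, so this group has no replicate there. In spleen Gpr34 had 42 to 156 counts in Gpr34-/- and 308 to 986 counts in wildtype libraries. Gpr34 lies within Cask on the other strand, and strand use in the counting is not given in the sources used here.

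The genes sit on 5 chromosomes. In the GRCm38 annotation (GENCODE M21), Il12b lies at chr11:44400063-44414033 and Il12a at chr3:68690644-68698547, both on the plus strand and with no overlapping gene. Il23a lies at chr10:128296139-128298752 on the minus strand. Il27, at chr7:126589010-126594941 on the minus strand, overlaps Apobr on the plus strand. Ebi3, at chr17:55952640-55957022 on the plus strand, overlaps Gm16712 on the minus strand. Since strand use in the counting is not given, whether reads of the overlapping genes were kept apart is not known. Exon lengths were 1967 bases for Il12b, 1701 for Il12a, 2247 for Il23a, 1154 for Ebi3 and 1021 for Il27.

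Promoters are shown for the 3 members that the RefSeq table holds (Il12b, Il12a with 2 starts, and Ebi3), since these genes moved together with LPS. Each runs from 250 bases before the start to 50 bases into the transcript, on the plus strand of GRCm38.p6, so that the first transcribed base is base 251 of 300. Capitals mark the letters AAATTCCC, the known half-site for NF-kappaB of the Il12b promoter, a motif added after the sequence had been read.
Il12b, chr11:44399813-44400112: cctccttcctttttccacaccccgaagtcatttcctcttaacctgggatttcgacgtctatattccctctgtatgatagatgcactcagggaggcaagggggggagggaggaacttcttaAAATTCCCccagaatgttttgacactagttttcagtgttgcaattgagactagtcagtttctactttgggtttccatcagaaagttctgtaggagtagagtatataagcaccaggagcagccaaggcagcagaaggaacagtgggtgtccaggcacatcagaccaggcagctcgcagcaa
Il12a, first start, chr3:68690394-68690693: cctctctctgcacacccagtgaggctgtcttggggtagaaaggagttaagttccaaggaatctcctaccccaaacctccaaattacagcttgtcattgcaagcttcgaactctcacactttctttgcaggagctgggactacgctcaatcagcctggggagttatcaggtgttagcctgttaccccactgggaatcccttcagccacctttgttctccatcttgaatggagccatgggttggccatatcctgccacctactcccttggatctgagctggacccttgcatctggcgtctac
Il12a, second start, chr3:68691174-68691473: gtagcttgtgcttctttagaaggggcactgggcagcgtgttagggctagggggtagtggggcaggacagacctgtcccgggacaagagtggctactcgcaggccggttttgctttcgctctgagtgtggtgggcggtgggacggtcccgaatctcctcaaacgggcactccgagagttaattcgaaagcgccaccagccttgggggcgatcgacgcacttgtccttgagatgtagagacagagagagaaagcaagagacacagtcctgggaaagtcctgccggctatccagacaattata
Ebi3, chr17:55952373-55952672: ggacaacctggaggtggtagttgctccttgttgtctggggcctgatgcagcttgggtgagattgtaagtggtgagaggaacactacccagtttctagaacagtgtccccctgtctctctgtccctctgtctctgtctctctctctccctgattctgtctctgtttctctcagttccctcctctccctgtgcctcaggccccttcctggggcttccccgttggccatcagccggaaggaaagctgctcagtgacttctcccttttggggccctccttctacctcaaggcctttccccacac
The half-site stood from 130 to 123 bases before the Il12b start and is held, on either strand, by 0.947% of 32851 mouse promoters of this length. It shares letters with the full NF-kappaB motif. The full motifs, searched on both strands, were not found in any of the 4 windows. They were GGGNNTTTC for NF-kappaB (4.36% of all promoters hold it), GAAANNGAA for interferon regulatory factors (8.56%), TGANTCA for AP-1 (7.81%), GAGGAAGT for PU.1 (3.2%) and TTGCNNAA for C/EBP (10.8%). The absence of a match says only that these letters are not in these windows.

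LPS raised all 5 subunit genes in both genotypes. In wildtype cells 5 of 5 members were higher and 0 lower with an adjusted p under 0.05 (edgeR's quasi-likelihood F-test, Benjamini-Hochberg adjustment over 16965 genes), where 18.1% of all genes were higher and 15.8% lower. In cells labelled Gpr34-/- 5 of 5 were also higher and 0 lower, where 15.3% of all genes were higher and 13.4% lower. The median log2 fold change of the members was 7.09 in wildtype cells and 6.01 in cells labelled Gpr34-/-, while that of all genes was -0.03 in each. In all 5 members, every LPS-treated library lay above every naive library of its genotype, as in 25.6% of all genes in wildtype cells and 21.3% in cells labelled Gpr34-/-. Levels below are CPM, the usual depth-scaled counts, on TMM-scaled library sizes, which correct for the makeup of a library. No member lost its call under any alternative, with log2 fold changes over all members from 2.19 to 9.32 in cells labelled Gpr34-/- and from 3.11 to 10.26 in wildtype cells. The upper value in cells labelled Gpr34-/- is that of Il12a, and Il23a ran from 6.50 to 8.96 there.

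**Figure D1:**
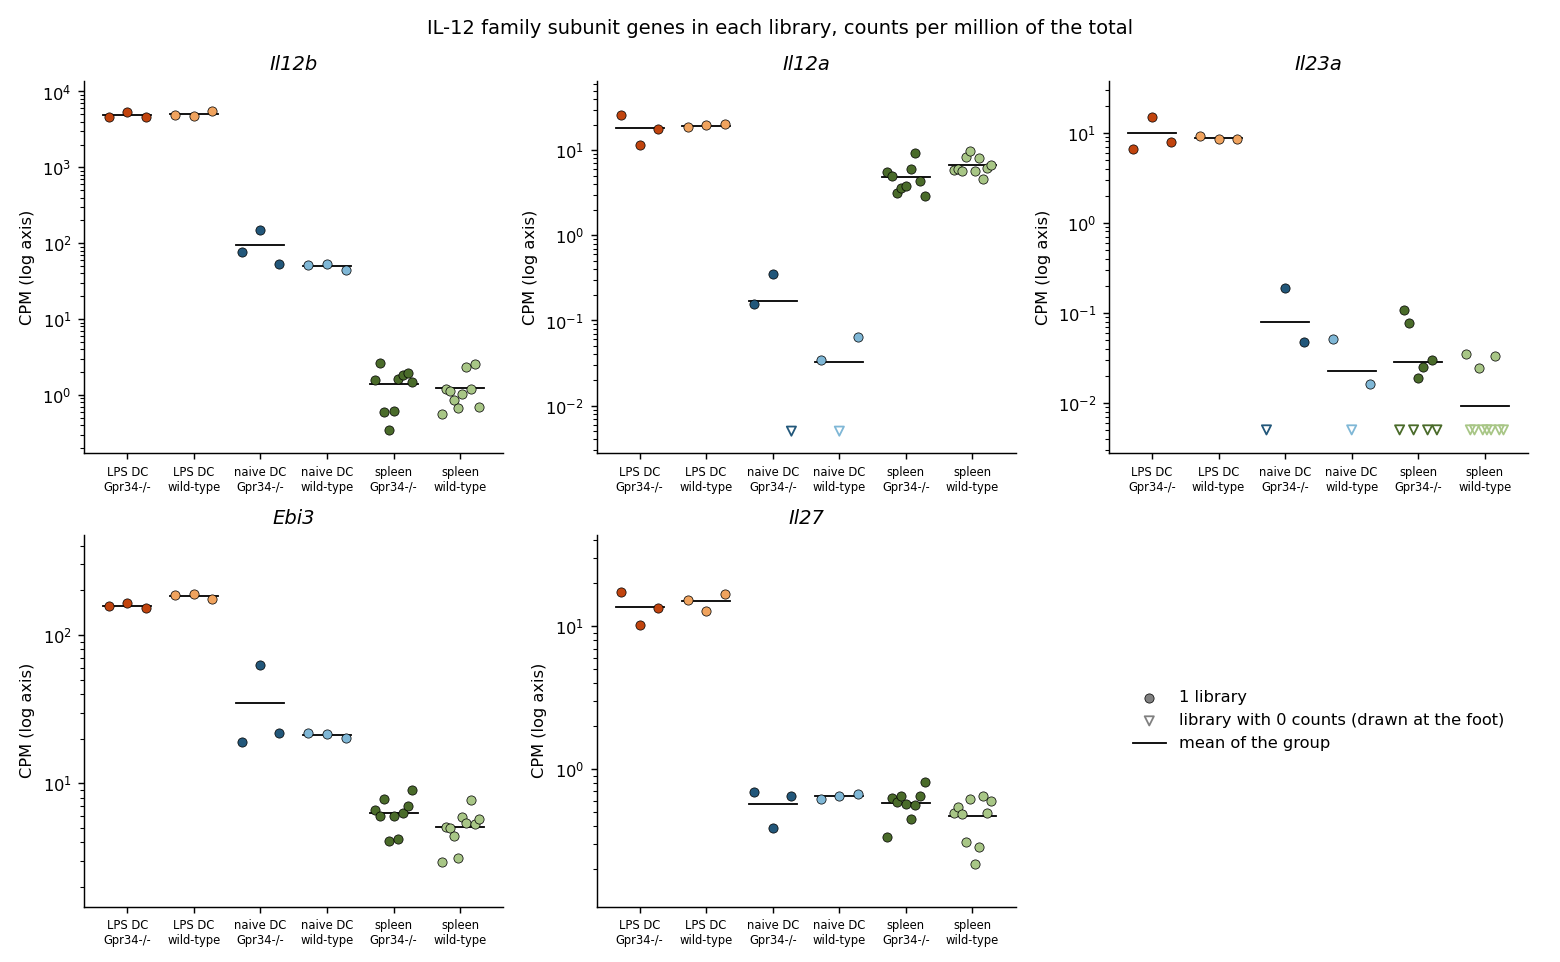
CPM of the plain library total (log axis) of each subunit gene in every library of the 6 groups; points are libraries, open triangles libraries with 0 counts, and bars group means. LPS-treated dendritic cells hold the highest level of every gene, and Il12a is higher in spleens than in naive dendritic cells while Il12b is lower.

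Il12b, the chain shared by IL-12 and IL-23, was the most abundant member. It had 5158, 5849 and 5214 CPM in LPS-treated replicates 2, 3 and 4 labelled Gpr34-/-, against 69.0, 137 and 45.7 CPM in naive replicates 2, 3 and 4. In wildtype cells it had 5660, 5484 and 6482 CPM in LPS-treated replicates 1, 2 and 3, against 44.2, 46.6 and 38.9 CPM in naive replicates 1, 2 and 4. The LPS-treated libraries of both genotypes lay close together, whereas naive replicate 3 labelled Gpr34-/- stood above the other naive libraries. The log2 fold change was 6.01 (SE 0.37, adjusted p = 1.66e-06) in cells labelled Gpr34-/- and 7.09 (SE 0.39, adjusted p = 7.16e-07) in wildtype cells. After LPS this single gene took 0.457 to 0.549% of all counts of a library.

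Il12a, the chain that makes IL-12 together with Il12b, was nearly silent in naive cells. It had 29.3, 12.5 and 20.2 CPM in LPS-treated replicates 2, 3 and 4 labelled Gpr34-/-, against 8, 26 and 0 counts, or 0.141, 0.320 and 0 CPM, in naive replicates 2, 3 and 4. In wildtype cells it had 21.5, 22.3 and 23.9 CPM after LPS, against 2, 0 and 4 counts in naive cells. Every LPS-treated library was far above every naive one, and the LPS-treated cells labelled Gpr34-/- scattered to both sides of the wildtype libraries. The highest, LPS replicate 2 labelled Gpr34-/-, is also the library with 557.2 CPM of stromal and endothelial markers, whose part in its level was not tested. Because the naive counts were so low, the ratio of summed counts, each over its summed TMM-scaled library sizes, carries a wide interval. The ratio was 109.8 (95% counting interval 78.4 to 158.9) in cells labelled Gpr34-/- and 748.5 (343.4 to 2041) in wildtype cells. Without naive replicate 3 labelled Gpr34-/- the first was 263.6 (133.6 to 611.2). The fitted log2 fold changes were 6.89 (SE 0.65, adjusted p = 3.33e-05) and, in wildtype, 9.45 (SE 0.78, adjusted p = 9.92e-06).

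Il23a, the chain that turns Il12b into IL-23, had the fewest summed counts of the members in naive cells. It had 16 in cells labelled Gpr34-/- and 4 in wildtype cells, against 34 and, in wildtype, 6 for Il12a. In naive replicate 4 labelled Gpr34-/- and naive wildtype replicate 1 it had more counts than Il12a. It had 7.49, 16.3 and 8.82 CPM in LPS-treated replicates 2, 3 and 4 labelled Gpr34-/-, against 0, 14 and 2 counts in naive replicates 2, 3 and 4. In wildtype cells it had 10.6, 9.74 and 10.1 CPM after LPS, against 3, 0 and 1 counts in naive cells. LPS replicate 3 labelled Gpr34-/- was the highest library, and a naive library at 0 counts allows up to 0.0491 to 0.0527 CPM (a limit of 3 counts, covering counting error only). The ratio of summed counts, scaled as for Il12a, was 130.5 (80.1 to 228.9) in cells labelled Gpr34-/-. In wildtype cells it was 504.5 (196.5 to 1855), resting on 4 naive counts. Without naive replicate 3 labelled Gpr34-/- the first was 589.7 (163.0 to 4873), on 2 naive counts. Fitted log2 fold changes were 7.03 (SE 0.70, adjusted p = 4.92e-05) and, in wildtype, 8.83 (SE 0.81, adjusted p = 2e-05).

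Ebi3, the chain shared by IL-27 and IL-35, was already present in naive cells and had the smallest response of the 5. It had 177.0, 180.3 and 172.3 CPM in LPS-treated replicates 2, 3 and 4 labelled Gpr34-/-, against 17.1, 57.4 and 18.9 CPM in naive replicates 2, 3 and 4. In wildtype cells it had 214, 216 and 205 CPM after LPS, against 18.98, 18.73 and 17.74 CPM in naive cells. Of the 6 naive libraries, all but replicate 3 labelled Gpr34-/- lay between 17.1 and 18.98 CPM. The log2 fold change was 2.50 (SE 0.38, adjusted p = 0.000674) in cells labelled Gpr34-/- and 3.52 (SE 0.39, adjusted p = 7.56e-05) in wildtype cells.

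Il27, which encodes the other chain of IL-27, was low but countable in naive cells. It had 19.8, 11.1 and 15.3 CPM in LPS-treated replicates 2, 3 and 4 labelled Gpr34-/-, against 0.615, 0.357 and 0.555 CPM in naive replicates 2, 3 and 4. In wildtype cells it had 17.6, 14.5 and 20.1 CPM after LPS, against 0.535, 0.573 and 0.589 CPM in naive cells. The naive libraries had 27 to 42 counts each, and the lowest CPM of the LPS-treated and of the naive libraries was that of replicate 3 labelled Gpr34-/-. The log2 fold change was 4.93 (SE 0.28, adjusted p = 1.03e-06) in cells labelled Gpr34-/- and 4.94 (SE 0.28, adjusted p = 8.88e-07) in wildtype cells.

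**Figure D2:**
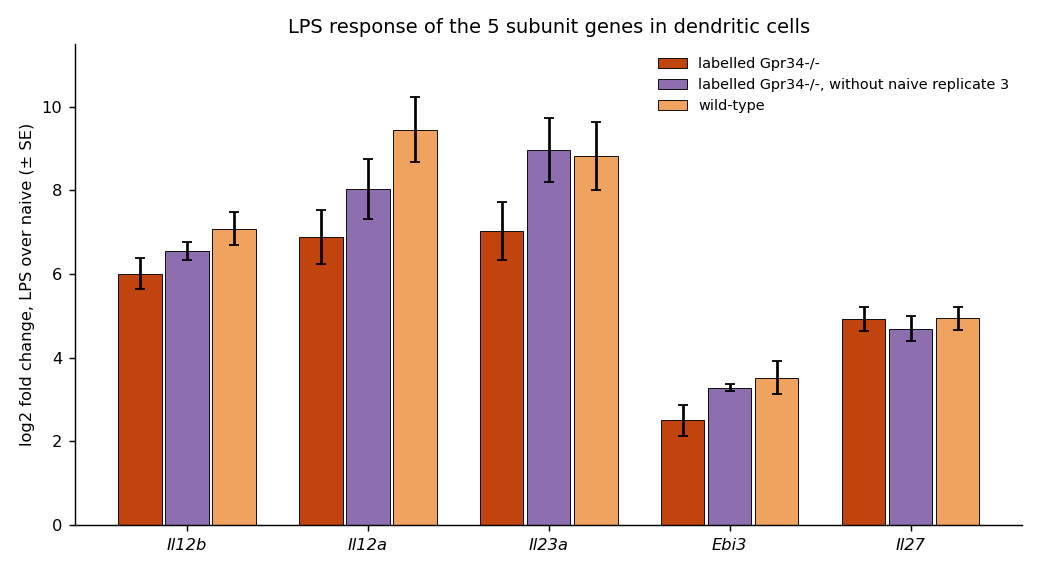
Log2 fold change of LPS-treated over naive dendritic cells (bars, ± SE of the fit) of each subunit gene in cells labelled Gpr34-/-, in the same cells without naive replicate 3, and in wildtype cells. The bars of Il12b, Il12a, Il23a and Ebi3 labelled Gpr34-/- are shorter with naive replicate 3 than without it, and Il27 is close to 5 in each.

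The RNAs of paired chains were not present in equal amounts. In CPM per kilobase of exon on plain library sizes, the order of the means in all 4 groups of dendritic cells was Il12b, Ebi3, Il27, Il12a and Il23a. The order of Il12a and Il23a rests on few counts in naive cells. Their ratio was 1.01 in LPS replicate 3 labelled Gpr34-/-, against 2.68 to 5.17 in the other LPS-treated libraries. Per kilobase of the longest transcript, Il12a passed Il27 after LPS, at 14.1 against 13.5 in cells labelled Gpr34-/- and 14.9 against 14.7 in wildtype cells, so these genes have no fixed order there. In LPS-treated cells Il12b averaged 2466 ± 231 in cells labelled Gpr34-/- and 2576 ± 188 in wildtype cells (CPM per kilobase, SD, n = 3 each), and Il12a averaged 10.8 ± 4.27 and, in wildtype, 11.4 ± 0.491. The ratio of Il12b to Il12a was thus 152.1, 404.7 and 223.8 in LPS-treated replicates 2, 3 and 4 labelled Gpr34-/- and 227.5, 212.9 and 234.9 in wildtype replicates 1, 2 and 3. Il12b RNA was in excess in each LPS-treated library, and the libraries labelled Gpr34-/- spread more widely. Its ratio to Il23a was 410.1 to 786.6 in LPS-treated cells labelled Gpr34-/- and 610.5 to 735.1 in LPS-treated wildtype cells.

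Ebi3 exceeded Il27 by less. The ratio per kilobase was 7.91, 14.4 and 9.98 in LPS-treated replicates 2, 3 and 4 labelled Gpr34-/-, against 24.5, 142.4 and 30.2 in naive replicates 2, 3 and 4. In wildtype cells it was 10.8, 13.2 and 9.05 after LPS, against 31.4, 28.9 and 26.6 in naive cells. All LPS-treated libraries lay below all naive libraries, Il27 having risen by more than Ebi3 on the log2 scale. The amount of protein and the pairing of chains were not measured.

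**Figure D3:**
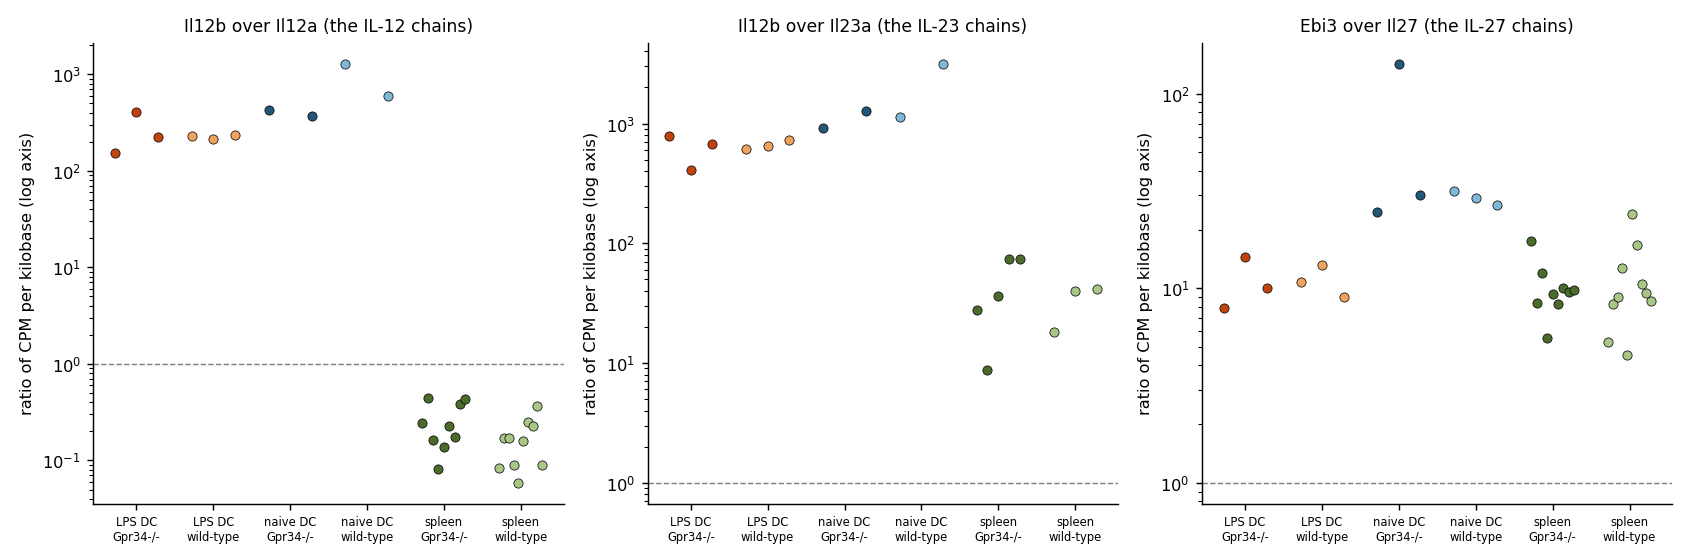
Ratio of CPM per kilobase (log axis) of the 2 chains of IL-12, IL-23 and IL-27 in each library with counts of both, by group; the dashed line marks a ratio of 1. Il12b is at least 152.1 times Il12a in every dendritic cell library shown and stays below it in every spleen.

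Spleens held a different balance. Il12a had 3.04, 4.58 and 9.02 CPM (lowest, median and highest) in the 9 Gpr34-/- spleens, against 4.54, 5.70 and 9.28 CPM in the 10 wildtype spleens. Il12b had 0.434, 1.57 and 2.54 CPM in Gpr34-/- spleens, against 0.528, 1.04 and 2.42 CPM in wildtype spleens. The groups overlapped for both genes. Per kilobase, Il12b over Il12a was 0.0820 to 0.447 in Gpr34-/- and 0.0589 to 0.364 in wildtype spleens. In each of the 19 spleens Il12a RNA was thus in excess, the reverse of each dendritic cell library with counts of both. Which cells of a spleen held either RNA was not measured.

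Ebi3 had 4.28, 6.24 and 9.47 CPM (lowest, median and highest) in Gpr34-/- spleens, against 2.77, 4.87 and 7.74 CPM in wildtype spleens. Il27 had 0.338, 0.613 and 0.852 CPM in Gpr34-/- spleens, against 0.211, 0.466 and 0.651 CPM in wildtype spleens. For both, the highest Gpr34-/- libraries exceeded the wildtype range while the rest lay within it. Ebi3 exceeded Il27 per kilobase in all 19 spleens, by 5.57 to 17.4 in Gpr34-/- and 4.54 to 24.2 in wildtype spleens.

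Il23a was barely detected in spleen. It had 26 counts over the 9 Gpr34-/- spleens, with 4 libraries at 0, and 8 counts over the 10 wildtype spleens, with 7 at 0. A library at 0 allows up to 0.0262 to 0.0327 CPM in Gpr34-/- and 0.0271 to 0.0487 CPM in wildtype spleens. The gene did not pass the filter on low counts, so it was not tested in spleen.

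Across all 6 groups on plain library sizes, the members fell into 3 patterns below their shared peak in LPS-treated dendritic cells. Il12b and Ebi3 were next highest in naive dendritic cells and lowest in spleens: Il12b averaged 93.6 CPM in naive cells labelled Gpr34-/- and 49.6 CPM in naive wildtype cells, and 1.39 CPM in Gpr34-/- and 1.23 CPM in wildtype spleens. The naive and spleen ranges of these genes did not overlap. Il12a had the opposite order, with 4.85 CPM in Gpr34-/- and 6.69 CPM in wildtype spleens and 0.169 CPM in naive cells labelled Gpr34-/- and 0.0329 CPM in naive wildtype cells, again without overlap. Il27 and Il23a did not separate naive cells from spleens, since the ranges of neighbouring groups overlapped at each step. The share of all genes that separate naive cells from spleens was not counted. These patterns are therefore not set apart from a general difference between cultures and a whole organ. Of neighbours in these orders that differ in genotype only, just LPS-treated Ebi3 did not overlap, with 152.3 to 165.7 CPM in cells labelled Gpr34-/- and 173.8 to 189.9 CPM in wildtype cells.

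No tested member differed by genotype past the threshold by edgeR's test or by DESeq2. After LPS edgeR's test called 0 of 5 members and 0.0% of all genes. An unadjusted p under 0.05 was reached by 11.3% of all genes and none of the members. The log2 fold changes of Gpr34-/- over wildtype were -0.12 for Il12b (95% interval -0.77 to 0.53), -0.13 for Il12a (-1.14 to 0.89), 0.10 for Il23a (-0.98 to 1.18), -0.26 for Ebi3 (-1.05 to 0.52) and -0.18 for Il27 (-0.68 to 0.33). Thus, changes of about 2-fold in either direction lie inside some of these intervals. Ebi3 averaged 176.5 ± 4.05 CPM in LPS-treated cells labelled Gpr34-/- and 211.8 ± 5.89 CPM in LPS-treated wildtype cells (SD, n = 3 each). All 3 libraries labelled Gpr34-/- lay below the wildtype ones, as in 8.58% of all genes.

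LPS replicate 3 labelled Gpr34-/- decided several of these signs. Among the 3 LPS-treated libraries labelled Gpr34-/- it was highest for Il12b, Il23a and Ebi3 and lowest for Il12a and Il27. Without it the difference was 0.13 for Il12a, 0.01 for Il27 and -0.31 for Il23a. Its summed macrophage markers stood at 896.8 CPM, against 1547 and 2057 CPM in the other LPS-treated libraries labelled Gpr34-/- and 1256 to 1774 CPM in LPS-treated wildtype libraries, and its dendritic cell markers at 15080 CPM, against 14050 and 14170 CPM in the other LPS-treated libraries labelled Gpr34-/- and 14350 to 16920 CPM in LPS-treated wildtype libraries. It thus lay below the others in macrophage markers and within their range in dendritic cell markers. The part of these markers in the result was not tested.

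In naive cells 0 of 5 members were called between genotypes, as were 0.0% of all genes by edgeR's quasi-likelihood test. An unadjusted p under 0.05 was reached by Il12b and Il12a, and by 6.71% of all genes. The log2 fold changes were 0.96 for Il12b (SE 0.30, adjusted p = 0.630), 2.43 for Il12a (SE 1.004, adjusted p = 0.732), 1.90 for Il23a (SE 1.07, adjusted p = 0.809), 0.76 for Ebi3 (SE 0.36, adjusted p = 0.752) and -0.17 for Il27 (SE 0.28, adjusted p = 0.974). Naive replicate 3 labelled Gpr34-/- moved these values: without it they were 0.40, 1.25, -0.07, -0.05 and, for Il27, 0.04. Il12b and Il12a thus kept their sign. For both, naive replicate 2 labelled Gpr34-/- also lay above the naive wildtype libraries, and replicate 4 did not. Replicate 2 had 68.95 CPM of Il12b, against 38.86 to 46.57 CPM, and 0.1406 CPM of Il12a, against 0 to 0.05614 CPM.

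Naive replicate 3 labelled Gpr34-/- stood at 2.81 times the mean of the other 5 naive libraries for Il12b, 7.06 times for Il12a, 8.63 times for Il23a and 3.14 times for Ebi3, and above each of them. For Il27 it stood at 0.622 times their mean and below each of them. Its Ebi3 level was 32.5% of the mean of LPS-treated cells labelled Gpr34-/-, where the other naive libraries averaged 10.4%. For Il12b the share was 2.54%, against 0.904% in the other naive libraries. Across all genes it was the highest of the 3 naive libraries labelled Gpr34-/- in 64.9% of the 3064 genes that were higher with LPS in wildtype cells, and the lowest in 68.8% of the 2679 genes that were lower, against 37.8 and 36.4% of all genes tested. It was not given LPS according to its label. Its macrophage markers summed to 762.5 CPM, against 1311 to 1594 CPM in the other naive libraries, and its dendritic cell markers to 13200 CPM, against 9528 to 11940 CPM. Mast cell and basophil markers summed to 24.05 CPM, against 44.57 to 57.45 CPM, neutrophil markers to 10.28 CPM, against 20.2 to 33.07 CPM, and plasma cell markers to 459.6 CPM, against 588.6 to 693.3 CPM. It was the lowest naive library in each of these lists but that of dendritic cells, where it was the highest. Their part in its levels was not tested.

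**Figure D4:**
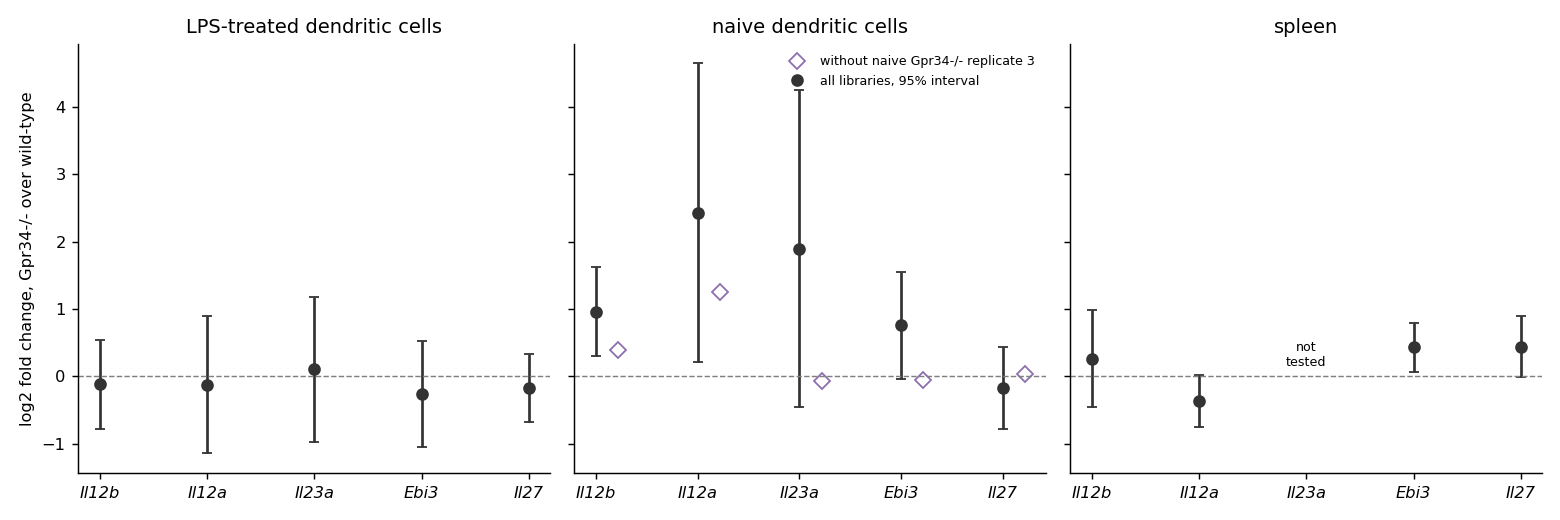
Log2 fold change of Gpr34-/- over wildtype (points, 95% interval of the fit) for each subunit gene in LPS-treated dendritic cells, naive dendritic cells and spleens; open diamonds give naive cells without replicate 3 labelled Gpr34-/-. No member passed the test after adjustment, Il23a was not tested in spleen, and without that naive library the values of Il23a, Ebi3 and Il27 lie within 0.1 of 0.

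The interaction of genotype and LPS asks whether the LPS response differed between genotypes. By edgeR's test no member was called (0 of 5), nor was any gene (0.0%). An unadjusted p under 0.05 was reached by 2 of 5 members (Il12b and Il12a) and by 4.0% of all genes. The differences of the log2 fold changes, Gpr34-/- minus wildtype, were -1.08 for Il12b (SE 0.42), -2.56 for Il12a (SE 1.11), -1.80 for Il23a (SE 1.17), -1.02 for Ebi3 (SE 0.51) and -0.01 for Il27 (SE 0.41), each with an adjusted p of 1. Without naive replicate 3 labelled Gpr34-/- they were -0.51 for Il12b, -1.37 for Il12a, 0.19 for Il23a, -0.20 for Ebi3 and -0.21 for Il27. These differences share their naive libraries with the comparisons above.

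In spleen edgeR's test called 0 of the 4 tested members and 0.177% of all genes. Il12a was at -0.36 (SE 0.19, unadjusted p = 0.0649, adjusted p = 0.32), Il12b at 0.26 (SE 0.35, adjusted p = 0.715), Ebi3 at 0.43 (SE 0.17, unadjusted p = 0.0214, adjusted p = 0.215) and Il27 at 0.44 (SE 0.22, unadjusted p = 0.0547, adjusted p = 0.299). Only Ebi3 had an unadjusted p under 0.05, as did 17.4% of all genes. Its mean was 6.61 ± 1.57 CPM in Gpr34-/- spleens and 4.90 ± 1.40 CPM in wildtype spleens (SD, n = 9 and 10). Each sign held without any single library, and the adjusted p of Ebi3 lay between 0.0864 and 0.355 over the alternatives. Erythroid markers differed widely between spleens, with sums of 42090 to 285900 CPM in Gpr34-/- and 29200 to 114400 CPM in wildtype spleens, and their part in these values was not tested.

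The receptor chains that bind the cytokines responded to LPS in part. In cells labelled Gpr34-/- 2 of 5 rose and 1 fell, where 15.3% of all genes rose and 13.4% fell, and in wildtype cells 2 rose and 1 fell, where 18.1% of all genes rose and 15.8% fell. Il12rb1, the chain shared by the IL-12 and IL-23 receptors, was at 2.56 (SE 0.44) in cells labelled Gpr34-/- and 3.18 (SE 0.45) in wildtype cells, as log2 fold changes. Il23r, which completes the IL-23 receptor, was at 1.36 and, in wildtype, 1.72. Il6st, the signalling chain of the IL-27 receptor, fell by 1.13 and, in wildtype, by 1.20. Il27ra and Il12rb2, the chains specific to IL-27 and IL-12, did not pass, at -1.30 and 0.10 in cells labelled Gpr34-/- and -1.69 and -0.41 in wildtype cells. These calls depend on the setting: of 20 alternatives, Il27ra was called lower in 3 in cells labelled Gpr34-/- and 5 in wildtype cells, Il12rb2 was called lower in 1 in cells labelled Gpr34-/- and 4 in wildtype cells, and Il23r lost its call in 4 in cells labelled Gpr34-/- (largest adjusted p = 0.0663). Il12rb2 was nevertheless well measured, with 124.7 ± 49.1 CPM in LPS-treated cells labelled Gpr34-/- and 98.8 ± 9.63 CPM in LPS-treated wildtype cells (SD, n = 3 each).

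Of 6 genes that carry the receptor signal, 4 rose in each genotype. Among all genes 15.3% rose in cells labelled Gpr34-/- and 18.1% in wildtype cells. Stat3, used by IL-23 and IL-27, was at 0.87 in cells labelled Gpr34-/- and 0.68 in wildtype cells. The kinases Jak1 and Tyk2 were at 0.31 and 0.34 in cells labelled Gpr34-/- and 0.46 and 0.39 in wildtype cells. The calls of the kinases were not stable: of 20 alternatives, Tyk2 was no longer called higher in 11 in cells labelled Gpr34-/- and 6 in wildtype cells, and Jak1 in 5 and, in wildtype, 1. With no composition factors, which moved the median of all genes to -0.35 in cells labelled Gpr34-/- and -0.44 in wildtype cells, 2 rose in cells labelled Gpr34-/- and, in wildtype, 1 rose and 1 fell. Stat4, which carries the IL-12 signal, and Jak2 did not pass, at 0.51 and 0.20 in cells labelled Gpr34-/- and 0.48 and -0.01 in wildtype cells.

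Of 22 regulators of the subunit genes, 15 rose and 0 fell in cells labelled Gpr34-/-, and 15 rose and 2 fell in wildtype cells. The shares of all genes were 15.3% higher and 13.4% lower in cells labelled Gpr34-/-, and 18.1% higher and 15.8% lower in wildtype cells. The list had a median log2 fold change of 0.75 in cells labelled Gpr34-/- and 0.69 in wildtype cells. Nfkbiz, a nuclear partner of NF-kappaB needed for full Il12b induction, was at 4.17 (SE 0.29) in cells labelled Gpr34-/- and 4.75 (SE 0.29) in wildtype cells. Irf7, an interferon regulatory factor, was at 4.26 and, in wildtype, 4.15, and Batf, an AP-1 family factor of dendritic cells, at 2.17 and, in wildtype, 2.72. Atf3, a factor that dampens Toll-like receptor responses, was at 2.11 and, in wildtype, 2.52. Irf1, which acts at the Il12a and Il27 promoters, was at 1.18 and, in wildtype, 1.41, and Nfkb2, an NF-kappaB subunit, at 1.03 and, in wildtype, 1.19. Fos and Irf3 fell in wildtype cells, by 1.69 (SE 0.58, adjusted p = 0.0425) and 0.22 (SE 0.08, adjusted p = 0.0472), and were at -0.08 and -0.004 in cells labelled Gpr34-/-. In wildtype cells Fos lost its call in 9 and Irf3 in 10 of 20 alternatives, and with the replicate block or with only the libraries compared 0 regulators fell. With no composition factors 9 rose and 2 fell in cells labelled Gpr34-/-, and 10 rose and 4 fell in wildtype cells.

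All 10 genes listed here as brakes on the family rose in both genotypes. Of all genes, 15.3% rose in cells labelled Gpr34-/- and 18.1% in wildtype cells. Il10, the cytokine that suppresses Il12b transcription, had 6.11 ± 0.493 CPM in LPS-treated cells labelled Gpr34-/- against 0.0287 ± 0.0497 CPM in naive ones, and 5.21 ± 1.65 CPM in LPS-treated wildtype cells against 0.0471 ± 0.0423 CPM in naive ones (SD, n = 3 each). Socs3, a suppressor of cytokine signalling, was at 3.33 and, in wildtype, 3.30, and Tnfaip3, an inhibitor of NF-kappaB activation, at 2.27 and, in wildtype, 2.95. Adora2a, an adenosine receptor, was at 1.43 and, in wildtype, 1.56. The chains of the interleukin 10 receptor, Il10ra and Il10rb, were at 0.80 and 0.67 in cells labelled Gpr34-/- and 0.77 and 0.68 in wildtype cells. With no composition factors 8 rose in cells labelled Gpr34-/- and 10 in wildtype cells.

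Genes that sense LPS were divided. In cells labelled Gpr34-/- 6 of 10 rose and 3 fell, where 15.3% of all genes rose and 13.4% fell. In wildtype cells 5 rose and 2 fell, where 18.1% of all genes rose and 15.8% fell. Cd14, which hands LPS to its receptor, was at 3.15 and, in wildtype, 3.70, whereas Tlr4, the receptor itself, fell by 0.84 in cells labelled Gpr34-/- and by 1.23 in wildtype cells. The adaptors Myd88, Ticam1 and Ticam2 were at 0.71, 0.77 and 0.99 in cells labelled Gpr34-/- and 1.04, 0.76 and 1.18 in wildtype cells, and the kinase Irak1 fell by 0.46 and, in wildtype, by 0.63. Of the partners of the subunits, Clcf1, a cytokine of the IL-6 family, was at 1.33 and, in wildtype, 1.60, and Il6ra, the interleukin 6 receptor chain, fell by 1.31 and, in wildtype, by 2.08. Hsp90b1 and P4hb, a chaperone and an oxidoreductase of the endoplasmic reticulum where chains are paired, were at 0.23 and -0.35 in cells labelled Gpr34-/- and 0.37 and -0.20 in wildtype cells. Hsp90b1 passed in wildtype cells and P4hb in cells labelled Gpr34-/-, and edgeR's test called the difference between genotypes for neither. Of 20 alternatives, P4hb lost its call in 9 in cells labelled Gpr34-/-, and Hsp90b1 lost its call in 8 and changed sign in 1 in wildtype cells. Without the 3 libraries labelled Gpr34-/- with over 100 Gpr34 counts, LPS replicate 2 is the only LPS-treated library with that label. Calls of the partners there are therefore not given.

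**Figure D5:**
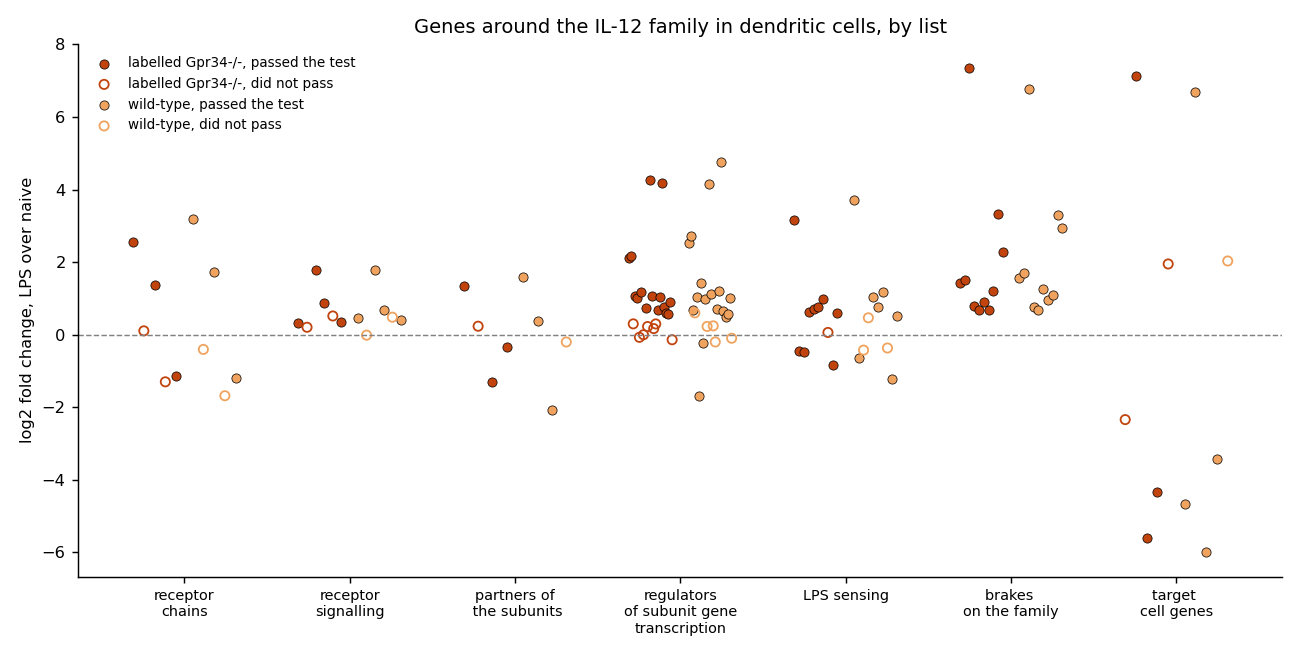
Log2 fold change of LPS-treated over naive dendritic cells for the tested genes of 7 lists, in cells labelled Gpr34-/- and in wildtype cells; filled points passed the test and open points did not. All 10 brakes on the family lie above 0, while the other lists hold genes on both sides in at least 1 genotype, and the highest point among the target cell genes is Gzmb, whose naive libraries are all at 0.

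Genes that mark the T and natural killer cells on which the cytokines act were mostly absent from the cultures. Of 12 such genes 7 did not pass the filter, among them Ifng, Tbx21 and Il17a. Il18r1 and Il18rap, the chains of the interleukin 18 receptor that acts beside IL-12, fell in both genotypes, to log2 fold changes of -5.62 and -4.35 in cells labelled Gpr34-/- and -6.01 and -3.43 in wildtype cells. Ccr6, a chemokine receptor, fell by 4.66 in wildtype cells and was at -2.34 in cells labelled Gpr34-/-, where it did not pass. Gzmb, a protease of killer cells, had 46 counts over the LPS-treated libraries labelled Gpr34-/- and 26 over the LPS-treated wildtype ones. All naive libraries had 0. The call of Gzmb was not stable. Of 19 alternatives it was lost in 7 in cells labelled Gpr34-/- and in 8 in wildtype cells.

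By edgeR's test no gene of the 7 lists was called between genotypes in naive cells, LPS-treated cells or spleens, or in the interaction. List genes were not followed under the alternatives here, some of which called more genes. Among all genes edgeR's test called 0.0% in each of these comparisons of dendritic cells and 0.177% in spleen. In spleen the smallest adjusted p among them belonged to Nfkbiz, at 59.3 ± 7.66 CPM in Gpr34-/- and 74.0 ± 7.04 CPM in wildtype spleens (SD, n = 9 and 10), at -0.32 on the log2 scale (SE 0.08, adjusted p = 0.0722). Irf7 followed at 0.40 (SE 0.10, adjusted p = 0.0756).

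The genes whose pattern over the 12 dendritic cell libraries was most like that of a member were found by the root mean square difference of centred log2 CPM, among 11608 genes with a mean of at least 1 CPM in some group. Il6, a cytokine gene, was closest to Il12b, at 0.246, and to Il23a, at 0.564. Il12b was followed by Hdc, which makes histamine, at 0.356, and Il1bos, an antisense RNA of Il1b, at 0.428. Il12a was closest to Il1bos at 0.818, Il6 at 0.853 and Il12b at 0.854. Il23a was next closest to Il12b at 0.584 and to the chemokine gene Cxcl2 at 0.711. Il27 was closest to Cmpk2 at 0.335, Ccl3 at 0.338 and Ifit3 at 0.382, of which Cmpk2 and Ifit3 are interferon-induced. Ebi3 was closest to Lad1 at 0.162, Serpinb9b at 0.218 and Slco3a1 at 0.233. Between the chains of IL-27 the difference was 1.07, and between those of IL-12 it was 0.854. The measure is not scaled, so genes with LPS responses of unlike size lie apart even where they move together. For Il12a and Il23a it also rests on few naive counts. The libraries share their culture system.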

How the data were processed

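RNA-seq of 12 dendritic cell and 19 spleen libraries was used. The authors deposited whole-number read counts per Ensembl gene and library, not normalized. Per the submitters' processing notes, the mouse build was mm9 and the tools included TopHat 1.3.3, Bowtie, bedtools and DESeq, with roles not stated. The annotation release, strand setting and handling of multiply placed reads are not given in those sources. A gene without a line was set to 0. Of low counts 57.8 to 62.1% were even, as when both mates of a pair are counted, so intervals are too narrow and cover counting error only. Groups came from the labels, which name no animal, culture or batch behind a replicate, so p-values measure the spread between libraries.

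Each tissue was fitted apart with edgeR 4.0.16 in R 4.3.3 (filterByExpr, TMM, robust quasi-likelihood F-test, Benjamini-Hochberg at 0.05), with 16965 genes and 8 residual degrees of freedom in dendritic cells and 20371 genes and 17 in spleen. The SE is the log2 fold change over the square root of F. The fit was tested on simulated counts. Alternatives were DESeq2 1.42.0, RLE factors, no filter, a replicate block, voom with sample weights (limma 3.58.1), no composition factors, only the libraries compared, and leaving out libraries. The 5 members, 7 lists (70 genes) and markers were chosen with earlier results of these data known. Named were the members, Gpr34, up to 6 genes of a list with the smallest p for LPS in wildtype cells, genes against their list, and the 3 genes most like each member. Sequences are from RefSeq (GRCm38.p6). Some items are not reported here.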

Additional observations from a re-analysis of the deposited data

How the results depend on the processing

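Of 597 values of members under alternatives, 573 kept sign and call and 24 changed sign, and no member gained or lost a call. The members called stayed at 5 of 5 in both LPS comparisons and at 0 elsewhere. The cause of the changes below was not tested. With no composition factors, genes called higher and lower with LPS numbered 1441 and 4986 in cells labelled Gpr34-/- (2601 and 2274 as reported) and 1599 and 6128 in wildtype cells (3064 and 2679), and log2 fold changes turned for Hsp90b1 (-0.10 in cells labelled Gpr34-/-, -0.0404 in wildtype), Jak1 (-0.021) and Jak2 (-0.13) in cells labelled Gpr34-/-, Tyk2 (-0.022) in wildtype cells, and the interaction of Il27 (0.0703). Il12rb2 in cells labelled Gpr34-/- turned to -0.22 there, to -0.0591 with voom and to -0.45 without the 3 libraries labelled Gpr34-/- with over 100 Gpr34 counts, and Irf3 there to 0.0225 with voom. Without those 3 libraries the naive genotype difference turned for Il23a (-0.0612), Il27 (0.0471) and Ebi3 (-0.0422). The difference after LPS turned for Il12a (0.36), Il23a (-0.46) and Il27 (0.17), and the interaction for Il27 (0.12). In these fits LPS replicate 2 is the only LPS-treated library labelled Gpr34-/- left. After LPS, Il23a also turned with voom (-0.10).

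Between genotypes, 0 genes were called in naive cells, against 76 by DESeq2, 1 with no filter and 1 with voom, and 0 to 1 leaving out each library. After LPS 0 were called, against 372 by DESeq2 and 0 to 2 leaving out each library. In the interaction 0 were called, against 21 by DESeq2. Counts without the 3 libraries are left out here, since LPS replicate 2 labelled Gpr34-/- then stands alone in its group. In spleen 36 were called, against 190 with no composition factors, 873 by DESeq2, 790 with voom, 297 without Gpr34-/- spleens 4, 6 and 9, and 8 to 1051 leaving out each library, with 1051 without Gpr34-/- spleen 6, 103 without wildtype spleen 2, 55 without wildtype spleen 4 and 8 without Gpr34-/- spleen 8; leaving out any of 12 others gave 15 to 23. Leaving out each library in turn gave log2 fold changes that crossed 0 as follows. With LPS they ran from -0.12 to 0.0372 for Jak2 in wildtype cells and, in cells labelled Gpr34-/-, from -0.26 to 0.31 for Il12rb2, -0.42 to 0.27 for Fos and -0.0315 to 0.0127 for Irf3. Between genotypes they ran from -0.0716 to 3.05 for Il23a, -0.36 to 0.0388 for Il27 and -0.0514 to 1.03 for Ebi3 in naive cells, and from -0.47 to 0.13 for Il12a, -0.31 to 0.31 for Il23a and -0.40 to 0.0118 for Il27 after LPS. In the interaction they ran from -2.94 to 0.19 for Il23a and -0.23 to 0.19 for Il27.

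Same-numbered libraries were not treated as pairs. Their deviations correlated at -0.091 to 0.0747 in dendritic cells and at -0.0782 to 0.29 in spleens. In spleens 5 of 9 pairs were over 0.1 and 3 of 9 were most alike. Of the 3 pairs of naive and LPS-treated cells labelled Gpr34-/-, 0 were over 0.1 and 2 were most alike. No label ties the numbers to a shared source. With the replicate block 3 genes were called in spleen and Il12b after LPS stood at 0.0055 between genotypes. Depth limits Il12a and Il23a in naive cells and Il23a in spleen, where a few counts set each level.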
